A study of Mus musculus with 10 samples.

Results

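The 47 genes described here encode proteins that help build the respiratory chain and ATP synthase in mouse liver, and that in most cases are not part of the finished enzyme. They were listed by symbol and known role with earlier results of these data known, and no measured value enters the rule. All 47 were found among the 41388 genes listed for each library. They were grouped by the complex they serve, with 13 genes for complex I, 4 for complex II, 6 for complex III, 21 for complex IV and 3 for complex V. Of these, 44 passed the filter of more than 1 CPM (the count scaled to a common library total) in at least 1 library, and the tests cover those 44 only.

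RNA-seq of poly-A selected liver RNA was compared in 3 groups of C57B/6J mice aged 12 wk, with 1 library per mouse. WT Refed mice (n = 2) were fasted for 22 h and then refed for 2 h according to the labels, whereas the study's text calls its comparison group fed. WT Fasting mice (n = 3) and NAMPT LKO Fasting mice (n = 5) were fasted for 24 h according to the labels, and the study's text gives a shorter fast. NAMPT LKO mice carry loxP-flanked Nampt and Albumin-cre, so the deletion is directed to hepatocytes and other liver cells keep the gene, and the WT mice are described as carrying the floxed allele. No refed NAMPT LKO livers were analysed here, so the effect of the knockout could be read in fasted livers only.

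Assembly factors act at defined steps. Some insert iron-sulfur clusters, flavin, copper or heme into subunits, some stabilise newly made mitochondrially encoded subunits or help their translation, and some join preformed modules. Their genes are nuclear, and loss of single factors is known to cause isolated complex deficiency. The liver is rich in mitochondria and depends on them for fatty acid oxidation and ketone body production during fasting.

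Each library held 30603080 to 43434139 counted reads, of which 25582 to 44328 fell on the 47 genes. Nampt (ENSMUSG00000020572), the targeted gene, was measured at 78.0 and 67.8 TMM-normalized CPM in WT Refed livers, at 63.0, 73.4 and 141 in WT Fasting livers, and at 12.1, 14.0, 11.8, 12.5 and 15.3 in NAMPT LKO Fasting livers. TMM-normalized CPM is the CPM after rescaling of each library by the trimmed mean of M-values, and all levels below are on this scale unless RPKM is named. Knockout liver 5 stood apart from the other libraries. Mitochondrially encoded transcripts took 21.1% of its reads against 7.42% to 12.9% elsewhere, and the deviation of its genes from their mean level correlated with GC content (Spearman's rho -0.565 across genes, against -0.0322 to 0.266 in the other libraries). Several results that rest on this liver are given with and without it. Among the WT Fasting livers, mouse 3 had 7.42% of such reads against 10.96% and 11.59%. The medians of the members, the macrophage markers and the mitochondrially encoded subunits in WT Fasting vs. WT Refed livers are also given without it. The 6 hepatocyte markers (Alb, Apoa1, Ttr and others) summed to between 61730 and 96726 deposited CPM, adipocyte markers to at most 1.83 and pancreatic acinar markers to at most 7.40, and in bulk tissue fewer cells of a type and less RNA per cell cannot be told apart.

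Promoter sequences were read for 41 of the 47 genes from RefSeq (GRCm38.p6, from 250 bases before to 50 bases after the annotated start, both strands searched). The 7-letter core CCGGAAG, bound by ETS factors such as GABP, occurred in 16 of 41 members (39.0%), against 9.93% of 27025 genes in the table and 19.7% of the 9843 tested genes with a promoter. The NRF1 core GCATGCG occurred in 3 members (7.32%, against 4.01% of all genes and 7.13% of tested genes), the YY1 core AAGATGG in 5 (12.2%, against 7.28% and 8.41%), and the ERR core AAGGTCA in 1 (2.44%, against 5.38% and 4.32%). These matches describe the letters only. The 250 bases before the start of 3 genes whose mRNA was lower in fasted livers are printed 5′ to 3′ on the coding strand, with every match to the 4 cores in capitals. They were picked after their values and sequences were seen, because Ndufaf4 was the member with the lowest fitted change and holds the NRF1 core, Timmdc1 holds the ETS core 4 times, and Bcs1l holds it 1 time. Of the other members called below, Coa3, Ndufaf3, Coa7 and Taco1 hold none of the 4 cores. Cox10 and Cox15 hold the ETS core, and no promoter was read for Tmem70. Any part of the cores in the changes was not tested. The Ndufaf4 matches 111 and 112 bases before the start overlap and lie on opposite strands, and a further match begins 2 bases after the start, outside the printed stretch. In Timmdc1 the ETS matches on both strands nearest to the start overlap. The stretches are chr4:24897833-24898082 on the plus strand for Ndufaf4, chr16:38522664-38522913 on the minus strand for Timmdc1 and chr1:74588039-74588288 on the plus strand for Bcs1l.
Ndufaf4: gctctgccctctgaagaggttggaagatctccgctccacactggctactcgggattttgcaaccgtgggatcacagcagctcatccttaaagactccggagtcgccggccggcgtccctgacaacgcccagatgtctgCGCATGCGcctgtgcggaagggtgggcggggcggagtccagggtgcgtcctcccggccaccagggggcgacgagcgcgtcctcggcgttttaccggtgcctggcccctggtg
Timmdc1: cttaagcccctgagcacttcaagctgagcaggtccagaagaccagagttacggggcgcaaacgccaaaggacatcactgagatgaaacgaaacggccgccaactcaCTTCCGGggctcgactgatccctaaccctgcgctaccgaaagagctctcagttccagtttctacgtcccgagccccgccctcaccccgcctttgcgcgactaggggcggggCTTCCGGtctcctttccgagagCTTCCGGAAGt
Bcs1l: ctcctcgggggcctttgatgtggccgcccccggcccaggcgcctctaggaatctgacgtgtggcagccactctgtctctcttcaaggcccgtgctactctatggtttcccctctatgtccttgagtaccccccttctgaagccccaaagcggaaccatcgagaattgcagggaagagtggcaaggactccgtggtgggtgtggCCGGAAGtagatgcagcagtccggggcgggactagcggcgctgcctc

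Assembly factor mRNA was, in sum, lower in the fasted WT livers than in the refed ones. The 44 tested genes summed to 993 and 1008 TMM-normalized CPM in WT Refed livers, to 863, 877 and 823 in WT Fasting livers, and to 829, 837, 804, 851 and 881 in NAMPT LKO Fasting livers. The 8 fasted livers all lay below both refed livers, and the 2 fasted groups overlapped. The same order held for complex I factors, which summed to 264 and 267 in WT Refed livers, to 194 to 217 in WT Fasting livers and to 192 to 222 in NAMPT LKO Fasting livers. Complex IV factors, the largest group, summed to 501 and 515, to 450 to 466, and to 429 to 455 in the same order. The sums for complex II (37.5 and 40.2, 28.1 to 30.6, and 28.7 to 33.8) and complex V (76.6 and 80.7, 57.8 to 68.8, and 58.0 to 66.0) also separated refed from fasted livers. For complex III the refed livers (108 and 111) lay above all fasted livers (92.3 to 102 in WT and 93.6 to 95.0 in the knockout) except knockout liver 5, at 110. Markers of Kupffer cells and macrophages (Clec4f, Adgre1, Cd68, Csf1r, Marco and Timd4) had 6 of 6 fitted changes above 0 in WT Fasting vs. WT Refed livers, and 0 were called. They summed to 159 and 121 TMM-normalized CPM in WT Refed livers, to 159, 156 and 305 in WT Fasting livers, and to 114 to 232 in NAMPT LKO Fasting livers, each of them detected in every liver. Their median log2 fold change was 0.59, and 0.18 without WT Fasting mouse 3, which held the 305. The median of the members, given below as -0.31, was -0.29 without that liver, and the part of other cell types in it was not tested.

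**Figure D1:**
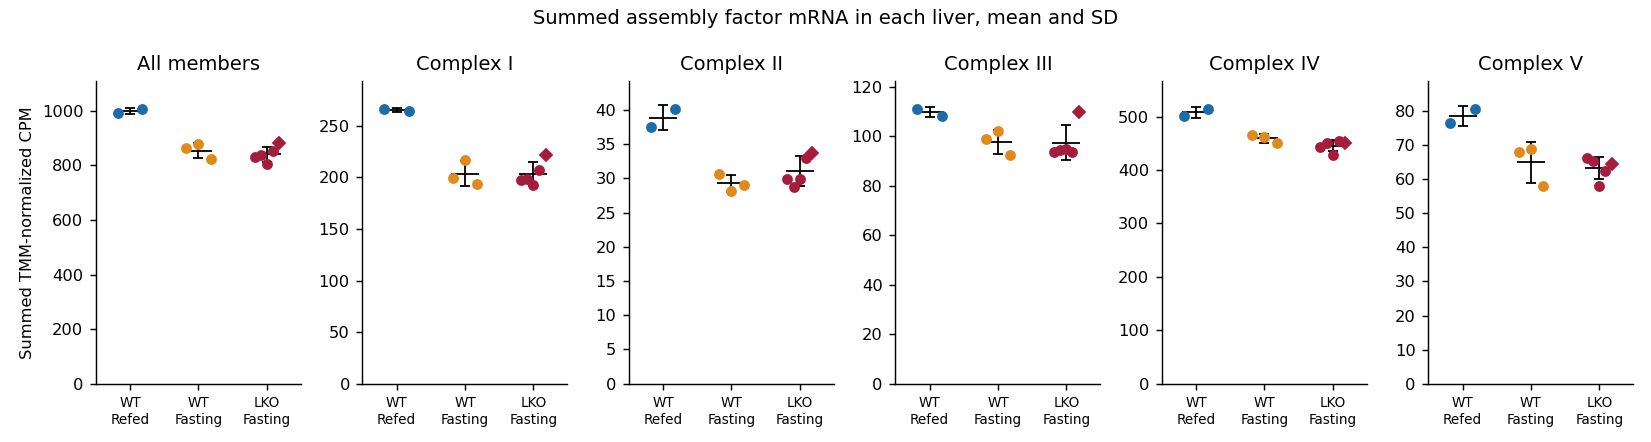
Summed TMM-normalized CPM of the assembly factors in each liver (points), with group means and SD (bars), for all tested members and for each complex; the diamond is knockout liver 5. All 8 fasted livers sit below the 2 refed livers in the sum over all members, which runs from 804 to 881 in fasted livers and from 993 to 1008 in refed livers.

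In WT Fasting vs. WT Refed livers, 2 of 44 members passed an adjusted p of 0.05, both lower (Coa3 and Ndufaf4, edgeR's quasi-likelihood test with Benjamini-Hochberg adjustment over 13444 genes). Of all genes tested 7.04% were called, and 4.36% were called lower, so the share of members called (4.55%) was close to the background. In simulated data for this comparison, the test recovered 0 of 100 changes of 0.5 (log2) and 8 of 100 changes of 1. The simulation changed 100 genes by each size, whereas 946 genes were called in the livers, so recovery there may differ. The fitted change was below 0 for 35 of 44 members (79.5%, against 46.4% of all genes), with a median log2 fold change of -0.31 over the members and 0.037 over all genes. At an unadjusted p under 0.05, 16 members were lower and 0 higher, a share of 36.4% beside 22.3% of all genes at that threshold and 11.9% lower. The groups did not overlap for 29 members that were lower and for 2 that were higher (Nubpl and Coa6), together 70.5% of members against 49.7% of all genes, of which 25.1% were lower.

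**Figure D2:**
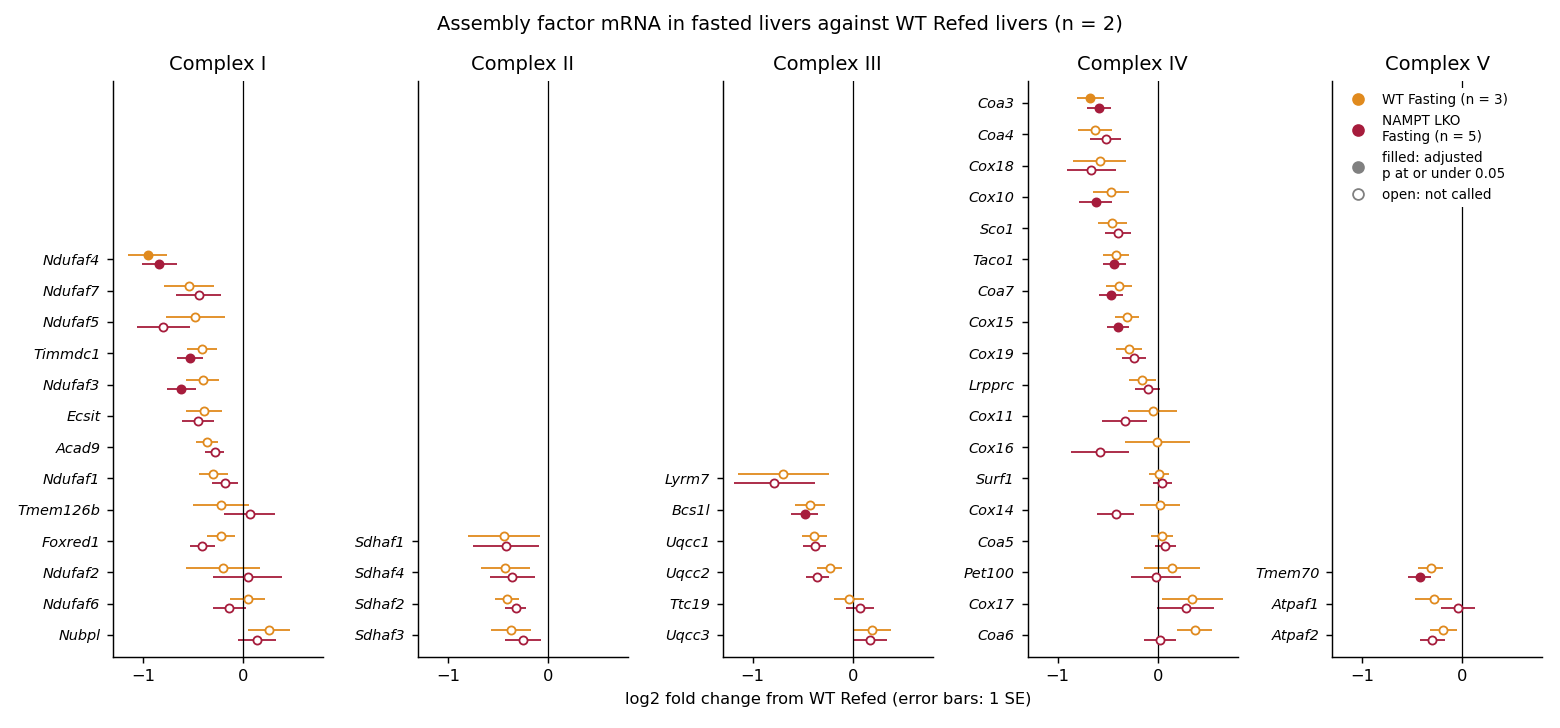
Log2 fold change of each tested assembly factor from WT Refed livers (horizontal axis, with 1 SE) in WT Fasting and NAMPT LKO Fasting livers, by complex; filled points passed an adjusted p of 0.05. Most points lie left of 0 in both fasted groups, and filled points are 2 for WT Fasting and 10 for NAMPT LKO Fasting livers.

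The calls depended on the pair of refed livers. Leaving out WT Refed mouse 1 or mouse 2 left 0 members called, where 1.45% and 0.798% of all genes were still called and the refed group held a single liver, assumed to vary like the others. The fitted changes without either were of similar size, at -1.03 and -0.90 for Ndufaf4 and at -0.73 and -0.63 for Coa3. Leaving out WT Fasting mouse 2 left 1 member (Ndufaf4, with 3.47% of all genes called), and leaving out knockout liver 5, which enters the shared estimate of spread, gave 11 (25.0%, with 16.7% of all genes called). The number of members called also varied with the tool. It was 3 with edgeR's exact test (6.82%, against 8.91% of all genes), 8 with DESeq2 (18.2%, against 12.2%) and 18 with voomWithQualityWeights, of which 17 were lower and 1 was higher (40.9%, against 24.8%).

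NAMPT LKO Fasting vs. WT Refed livers, which share libraries with the comparisons above and below, differed in both feeding and genotype. A call in this comparison and not in WT Fasting vs. WT Refed livers is no test of genotype, as the fasted groups held 5 and 3 livers. The direct comparison of the 2 fasted groups, given below, called 0 of 44 members. Between NAMPT LKO Fasting and WT Refed livers, 10 of 44 members were called, all lower (22.7%, against 11.2% of all genes called and 6.58% called lower). The fitted change was below 0 for 35 members (46.8% of all genes), with a median of -0.37 against 0.032 over all genes. At an unadjusted p under 0.05, 22 members were lower and 0 higher, against 26.1% of all genes and 13.5% lower. The groups did not overlap for 25 members, all lower (56.8%, against 33.5% of all genes and 17.8% lower). Leaving out WT Refed mouse 1 or 2 again left 0 members called, with 2.59% and 1.69% of all genes called. The count was 7, 5 and 10 without WT Fasting mouse 1, 2 or 3, where 9.70%, 8.86% and 11.5% of all genes were called. It was 6, 3, 3, 5 and 20 without knockout liver 1 to 5, where 8.82%, 7.37%, 8.18%, 9.06% and 21.2% were.

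Complex I factors had a median log2 fold change of -0.36 in WT Fasting vs. WT Refed livers, with 11 of 13 lower and none of those 11 overlapping between groups. In that comparison 25.1% of all genes were lower without overlap. Ndufaf4 (ENSMUSG00000028261, GRCm38 chr4:24898083-24905001), which works with Ndufaf3 on the module that docks ubiquinone, was at 34.0 and 37.2 TMM-normalized CPM in WT Refed livers, at 18.4, 22.5 and 14.2 in WT Fasting livers, and at 17.2, 19.0, 17.4, 23.8 and 22.1 in NAMPT LKO Fasting livers. Every fasted liver was below both refed livers, and the 2 fasted genotypes overlapped. Its level in WT Fasting livers was 0.516 times that in WT Refed livers (log2 fold change -0.95, SE 0.20, adjusted p = 0.0166), and in NAMPT LKO Fasting livers 0.559 times (-0.84, SE 0.18, adjusted p = 0.0132). This was the lowest fitted change of any member in either comparison.

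Ndufaf3 (ENSMUSG00000070283) was at 12.9 and 12.6 in WT Refed livers, at 9.65, 8.65 and 10.7 in WT Fasting livers, and at 8.98, 8.30, 9.69, 6.98 and 7.75 in NAMPT LKO Fasting livers. All fasted livers were again below both refed livers. Against WT Refed livers, the difference was called in NAMPT LKO Fasting livers (-0.62, SE 0.15, adjusted p = 0.0240) but not in WT Fasting livers (-0.40, SE 0.16, adjusted p = 0.174). Timmdc1 (ENSMUSG00000002846, chr16:38498347-38522663), a membrane protein of the intermediate that assembles the membrane arm, was at 39.1 and 37.8 in WT Refed livers, at 26.8, 31.9 and 28.1 in WT Fasting livers, and at 23.2, 27.2, 23.7, 32.2 and 26.9 in NAMPT LKO Fasting livers. The refed livers stood above all others for this gene too, with a log2 fold change of -0.53 (SE 0.13, adjusted p = 0.0291) in NAMPT LKO Fasting livers and of -0.41 (SE 0.15, adjusted p = 0.127) in WT Fasting livers. The other factors of that membrane-arm intermediate were not called in any comparison by edgeR's quasi-likelihood test. DESeq2 called Acad9 and voomWithQualityWeights called Acad9 and Ecsit, in both comparisons with WT Refed livers. In WT Fasting vs. WT Refed livers, Acad9 had a log2 fold change of -0.36, Ecsit of -0.39, Ndufaf1 of -0.30 and Tmem126b of -0.22. Among the remaining complex I factors, the arginine-modifying enzymes Ndufaf5 and Ndufaf7 had fitted changes of -0.48 and -0.54, the late-acting Ndufaf2 of -0.20 and the flavoprotein Foxred1 of -0.22 (29.0 and 27.5 in WT Refed livers, 24.8, 24.7 and 23.2 in WT Fasting livers, and 23.3, 22.1, 20.9, 23.1 and 17.1 in NAMPT LKO Fasting livers). Ndufaf6 was near 0 (0.04) and Nubpl, an iron-sulfur delivery protein, was at 0.26, and neither was called.

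**Figure D3:**
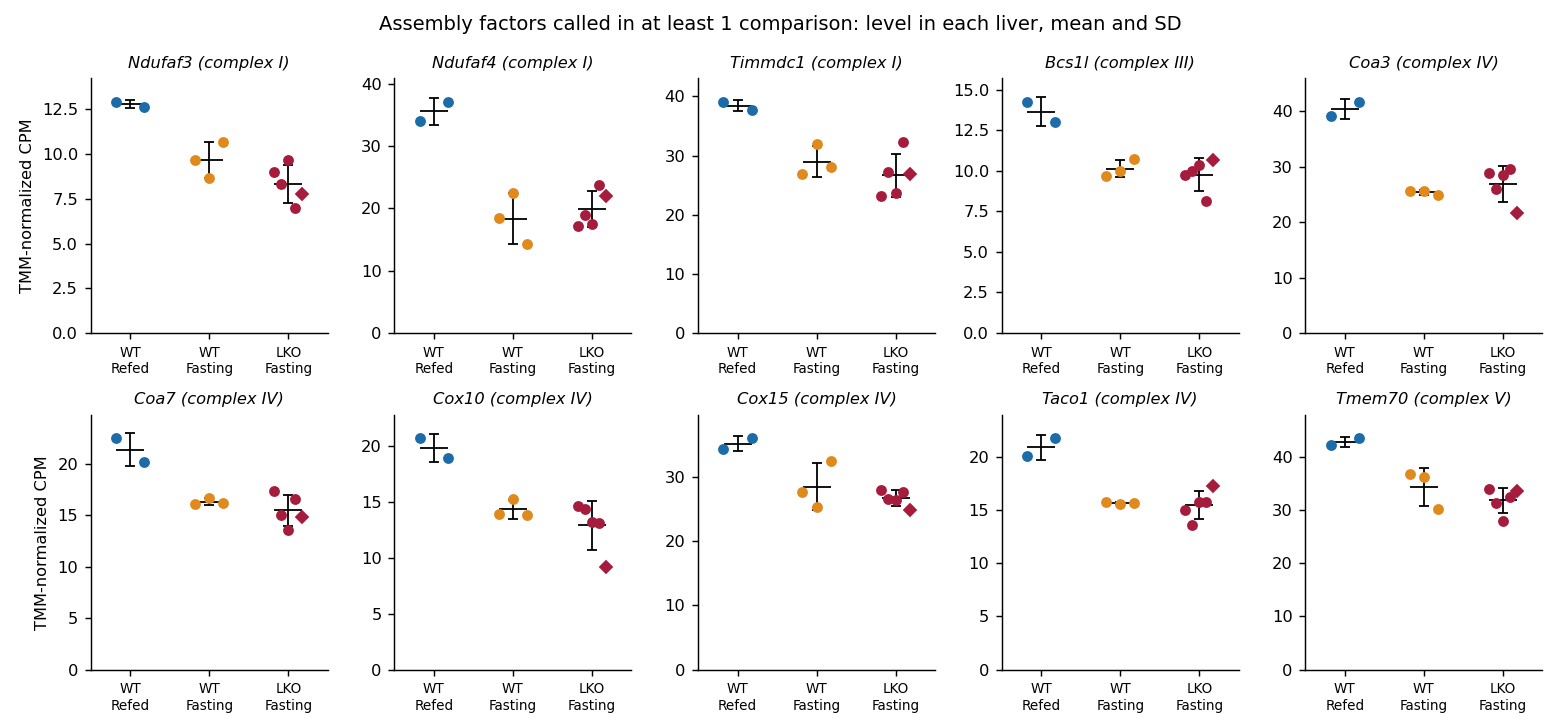
TMM-normalized CPM of the 10 members called in at least 1 comparison, in each liver (points), with group means and SD (bars); the diamond is knockout liver 5. In each panel the 2 refed livers lie above all 8 fasted livers, as for Ndufaf4 with 34.0 and 37.2 against 14.2 to 23.8.

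Complex II factors were all 4 lower in WT Fasting than in WT Refed livers with no overlap between groups, as were 25.1% of all genes. In NAMPT LKO Fasting vs. WT Refed livers 1 of the 4 was without overlap. None was called by edgeR's quasi-likelihood test. In WT Fasting vs. WT Refed livers, DESeq2, voomWithQualityWeights and a fit of those 2 groups alone called Sdhaf2, and the median log2 fold change was -0.42. Sdhaf2 (ENSMUSG00000024668), which promotes attachment of flavin to Sdha, was at 22.2 and 25.7 in WT Refed livers, at 18.2, 17.2 and 18.6 in WT Fasting livers, and at 17.9, 19.8, 19.5, 19.3 and 19.1 in NAMPT LKO Fasting livers, with a log2 fold change of -0.41 (SE 0.12, adjusted p = 0.0603) in WT Fasting livers. Sdhaf3, which acts with Sdhaf1 on the iron-sulfur subunit, was at -0.37, Sdhaf4, which binds the flavinylated subunit, at -0.43 and Sdhaf1 at -0.44 in the same comparison. Sdhaf1 was at 2.06 and 2.17 in WT Refed livers, at 1.80, 1.395 and 1.47 in WT Fasting livers, and at 1.82, 1.12, 1.00, 2.39 and 1.57 in NAMPT LKO Fasting livers. It was read at 35 to 94 counts only, and 69.6% of its exonic bases are shared with another annotated gene, E130208F15Rik.

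Complex III factors had a median of -0.31, with 5 of 6 lower. Bcs1l (ENSMUSG00000026172, chr1:74588289-74592443), the ATPase that carries the Rieske protein across the inner membrane, was at 14.3 and 13.0 in WT Refed livers, at 9.70, 9.98 and 10.7 in WT Fasting livers, and at 9.73, 9.999, 10.4, 8.12 and 10.7 in NAMPT LKO Fasting livers. Both refed livers were above all fasted livers. The difference was called in NAMPT LKO Fasting livers (-0.48, SE 0.13, adjusted p = 0.0405) and not in WT Fasting livers (-0.43, SE 0.15, adjusted p = 0.110). Uqcc1 and Uqcc2, which act together on newly made cytochrome b, were at -0.38 (adjusted p = 0.0914) and -0.23 (adjusted p = 0.301) in WT Fasting livers, without overlap. In WT Refed livers Uqcc2 was at 14.7 and 13.3, and its other values are given below. Lyrm7, the Rieske chaperone, was at 2.51 and 3.80 in WT Refed livers, at 1.48, 3.04 and 1.36 in WT Fasting livers, and at 1.13, 1.54, 1.43, 1.95 and 3.10 in NAMPT LKO Fasting livers. Its groups overlapped, at -0.70 with an SE of 0.45. Uqcc3 was at 25.5 and 21.8, at 30.2, 26.6 and 24.6, and at 25.1, 21.6, 28.3, 24.2 and 33.9 in the same order, the last being knockout liver 5. Uqcc3 and Ttc19 had log2 fold changes of 0.20 and -0.04 in WT Fasting livers, with overlap in both.

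Complex IV factors were mixed, with 12 of 18 tested lower and a median of -0.22 in WT Fasting vs. WT Refed livers. Coa3 (ENSMUSG00000017188, chr11:101277968-101279114), a membrane protein that holds newly made mt-Co1 during translation, was at 39.1 and 41.7 in WT Refed livers, at 25.7, 25.6 and 24.8 in WT Fasting livers, and at 28.8, 26.0, 28.5, 29.6 and 21.6 in NAMPT LKO Fasting livers. The fasted livers all lay below the refed pair. Its level was 0.628 times that of WT Refed livers in WT Fasting livers (-0.67, SE 0.14, adjusted p = 0.0149) and 0.666 times in NAMPT LKO Fasting livers (-0.59, SE 0.12, adjusted p = 0.0127). Cox14, its partner at the same step, was at 21.7 and 22.6 in WT Refed and 21.5, 22.8 and 23.2 in WT Fasting livers (0.02, SE 0.20), a value whose sign turned with library size as the only scaling (-0.04). Taco1, which activates translation of mt-Co1, was at 20.1 and 21.7, then at 15.7, 15.6 and 15.6, and in NAMPT LKO Fasting livers at 15.0, 13.6, 15.7, 15.7 and 17.3. Its log2 fold change was -0.43 in NAMPT LKO Fasting livers (SE 0.12, adjusted p = 0.0361) and -0.42 in WT Fasting livers (SE 0.13, adjusted p = 0.0767).

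Both enzymes that make heme A, the heme of complex IV, were lower in all fasted livers than in both refed livers. Cox10, which adds the farnesyl tail, was at 20.7 and 19.0 in WT Refed livers, at 14.0, 15.3 and 13.8 in WT Fasting livers, and at 14.6, 14.4, 13.3, 13.2 and 9.19 in NAMPT LKO Fasting livers. Cox15, which oxidises the product, was at 34.2 and 35.9, at 27.6, 25.2 and 32.4, and at 27.9, 26.4, 26.4, 27.6 and 24.7. In NAMPT LKO Fasting vs. WT Refed livers Cox10 was called at -0.62 (SE 0.17, adjusted p = 0.0363), or at -0.52 (adjusted p = 0.00502) without knockout liver 5, which held its lowest value, and Cox15 at -0.40 (SE 0.11, adjusted p = 0.0429), and in WT Fasting livers neither was called, at -0.47 (adjusted p = 0.161) and -0.30 (adjusted p = 0.172). Coa7, an intermembrane-space protein, was at 22.5 and 20.2, at 16.1, 16.7 and 16.2, and at 17.3, 15.1, 13.6, 16.6 and 14.9 in the same order. It was called in NAMPT LKO Fasting livers (-0.46, SE 0.12, adjusted p = 0.0333) but not in WT Fasting livers (-0.39, SE 0.13, adjusted p = 0.113).

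Copper delivery factors lay on both sides of 0 in WT Fasting vs. WT Refed livers. Sco1 was at 14.4 and 14.2 in WT Refed livers against 8.91, 11.7 and 10.7 in WT Fasting livers (-0.45, SE 0.14, adjusted p = 0.0845), and Cox19 was at -0.29 (adjusted p = 0.228), both without overlap. Cox11 was near 0 (-0.05), Cox17 at 0.35 with an SE of 0.31 (1.48 and 1.91 in WT Refed livers, 2.32, 1.74 and 2.40 in WT Fasting livers, and 1.46, 2.63, 1.86, 1.90 and 2.45 in NAMPT LKO Fasting livers), and Coa6 was higher in all 3 WT Fasting livers (31.2, 43.9 and 32.4) than in the refed ones (27.5 and 27.9) without being called (0.37, SE 0.18, adjusted p = 0.241). Coa4 was at -0.63 (SE 0.17, adjusted p = 0.0514). Of the other tested complex IV factors, Cox18, which exports the tail of mt-Co2, was at -0.58, Lrpprc, which stabilises mitochondrial mRNA, at -0.15, and Surf1, Coa5 and Pet100 were at 0.01, 0.05 and 0.14, all of them not called, and Cox16 differed by less than 0.01.

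Complex V factors were all 3 lower. Tmem70 (ENSMUSG00000025940), needed to assemble the ring of subunit c, was at 42.1 and 43.5 in WT Refed livers, at 36.7, 36.1 and 30.2 in WT Fasting livers, and at 33.9, 31.2, 28.0, 32.4 and 33.6 in NAMPT LKO Fasting livers. Its log2 fold change was -0.43 in NAMPT LKO Fasting livers (SE 0.11, adjusted p = 0.0356) and -0.32 in WT Fasting livers (SE 0.13, adjusted p = 0.162). Atpaf1 and Atpaf2, chaperones of the beta and alpha subunits of the catalytic head, were at -0.28 and -0.19 in WT Fasting livers and were not called. Atpaf1 was at 13.4 and 16.7 in WT Refed livers, at 12.2, 14.1 and 10.9 in WT Fasting livers, and at 14.3, 16.7, 13.1, 12.1 and 16.8 in NAMPT LKO Fasting livers, and all 3 groups overlapped.

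The medians of the nuclear subunit lists lay close to 0 in the same comparison. In WT Fasting vs. WT Refed livers, 0 of 36 nuclear complex I subunits, 0 of 4 complex II, 0 of 9 nuclear complex III, 0 of 12 nuclear complex IV and 0 of 16 nuclear complex V subunits were called, and their median log2 fold changes were 0.021, 0.026, 0.062, 0.098 and 0.029. All 12 nuclear complex IV subunits had a fitted change above 0, against 6 of the 18 complex IV assembly factors. The 13 mitochondrially encoded subunits had a median of -0.20, with 11 lower and 0 called, and the median was -0.050, with 8 lower, without WT Fasting mouse 3. A list of 16 other assembly factors that are not among the 47 had a median of -0.026, with 9 lower and 0 called. The lowest fitted change in that list was that of Tmem177, at -0.57 (adjusted p = 0.0914), and Hccs, which attaches heme to cytochromes c, was at -0.55 (adjusted p = 0.0514).

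**Figure D4:**
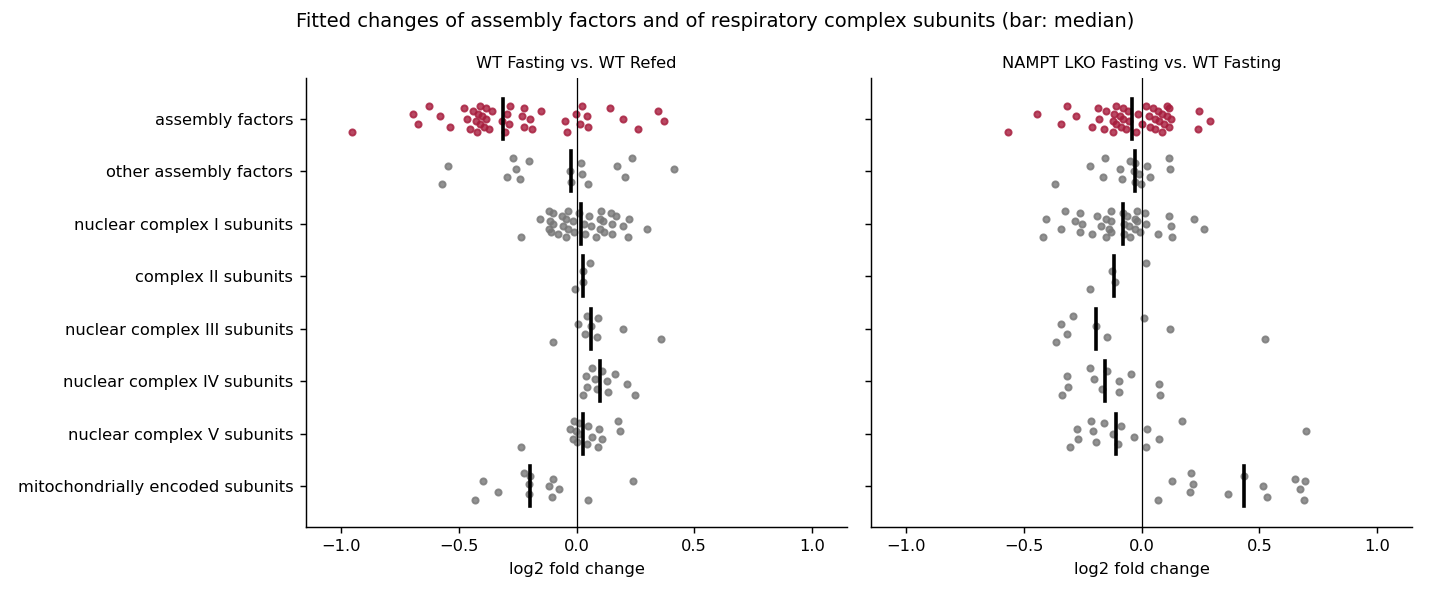
Fitted log2 fold change of each gene (points) and the median (bars) for the tested assembly factors, 16 other assembly factors and the subunits of the complexes, in WT Fasting vs. WT Refed livers (left) and NAMPT LKO vs. WT Fasting livers (right). On the left the assembly factors have a median of -0.31 and the nuclear subunit lists lie between 0.021 and 0.098; on the right the assembly factors lie at -0.040.

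Among 12 regulators of mitochondrial genes, 1 was called in WT Fasting vs. WT Refed livers, where 7.04% of all genes were. In NAMPT LKO Fasting vs. WT Refed livers, 1 was called higher and 1 lower, where 11.2% of all genes were called. Tfb1m, the mitochondrial ribosomal RNA methyltransferase, was at 12.8 and 11.9 in WT Refed livers, at 7.42, 7.63 and 6.28 in WT Fasting livers, and at 8.56, 8.11, 6.59, 5.92 and 8.57 in NAMPT LKO Fasting livers, without overlap between refed and fasted livers. Its log2 fold change was -0.80 in WT Fasting livers (SE 0.19, adjusted p = 0.0272) and -0.71 in NAMPT LKO Fasting livers (SE 0.17, adjusted p = 0.0220). Of all genes, 49.7% did not overlap between WT Fasting and WT Refed livers, and 33.5% between NAMPT LKO Fasting and WT Refed livers. Ppargc1a, a coactivator of mitochondrial biogenesis that is known to be induced by fasting, was at 6.48 and 7.19, at 12.4, 14.6 and 18.01, and at 19.2, 24.4, 23.8, 9.64 and 38.4, and its difference was called in NAMPT LKO Fasting vs. WT Refed livers (1.76, SE 0.42, adjusted p = 0.0236) but not in WT Fasting livers (1.13, SE 0.43, adjusted p = 0.149). Nrf1 and Gabpa, whose products bind the NRF1 and ETS cores, were at 0.01 and 0.13 in WT Fasting livers and were not called. In WT Fasting livers, the 15 tested members with an ETS core had a median log2 fold change of -0.39, and the 23 with a promoter but without the core one of -0.28. With the core 12 of 15 were lower and 0 called, and without it 20 of 23 were lower and 2 called. The difference was not tested.

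In NAMPT LKO vs. WT Fasting livers, the comparison that addresses loss of hepatocyte NAMPT, no change in assembly factors passed the test. Of 44 members 0 were called, where the background was 0.00744% of genes, the 1 gene called being Nampt itself (log2 fold change -2.81, SE 0.22, adjusted p = 0.00102). edgeR's exact test, DESeq2 and voomWithQualityWeights also called 0 members. The median log2 fold change was -0.040 over the members and 0.00025 over all genes, with 24 members lower and 20 higher (49.9% of all genes lower). By complex the medians were -0.06 for complex I, 0.08 for complex II, -0.04 for complex III, -0.07 for complex IV and -0.11 for complex V, and without knockout liver 5 they were -0.12, 0.03, -0.10, -0.06 and -0.05. The SE of a member's fitted change had a median of 0.14. In simulated data for this comparison, edgeR's quasi-likelihood test recovered 5 of 100 changes of 0.5 (log2) and 55 of 100 changes of 1. Changes of that size in single members could therefore be missed.

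At an unadjusted p under 0.05, 3 members were lower and 0 higher (6.82%, against 6.03% of all genes and 3.31% lower), all of them complex IV factors, and they are named because of these values. Cox14 (ENSMUSG00000023020, chr15:99725618-99728136), which holds newly made mt-Co1, was at 19.2, 14.8, 17.7, 19.5 and 11.4 in NAMPT LKO Fasting livers and at 21.5, 22.8 and 23.2 in WT Fasting livers. The groups did not overlap, and the knockout livers were below the refed pair as well. Its log2 fold change was -0.44 (SE 0.16, unadjusted p = 0.0183, adjusted p = 0.798), and -0.34 without knockout liver 5, which held the lowest value. Cox16, which takes part in mt-Co2 maturation, was at 3.27, 2.69, 2.27, 3.01 and 1.30 against 3.31, 3.91 and 3.96 (-0.57, SE 0.26, adjusted p = 0.827). It was at -0.41 without knockout liver 5, and 56.8% of its exonic bases are shared with Gm20498 on the same strand. Coa6 overlapped between the groups, at 27.6, 26.3, 23.7, 33.2 and 30.2 against 31.2, 43.9 and 32.4 (-0.34, SE 0.14, adjusted p = 0.827), and it was at -0.37 without knockout liver 5. Uqcc2 was the only other member without overlap, at 11.64, 10.6, 10.5, 11.5 and 10.5 against 11.64, 12.3 and 11.9 (-0.12, SE 0.10, adjusted p = 0.851), and its nearest livers of the groups were equal to 2 decimals. Counted so, 6.82% of members against 3.99% of all genes did not overlap (2.12% lower).

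**Figure D5:**
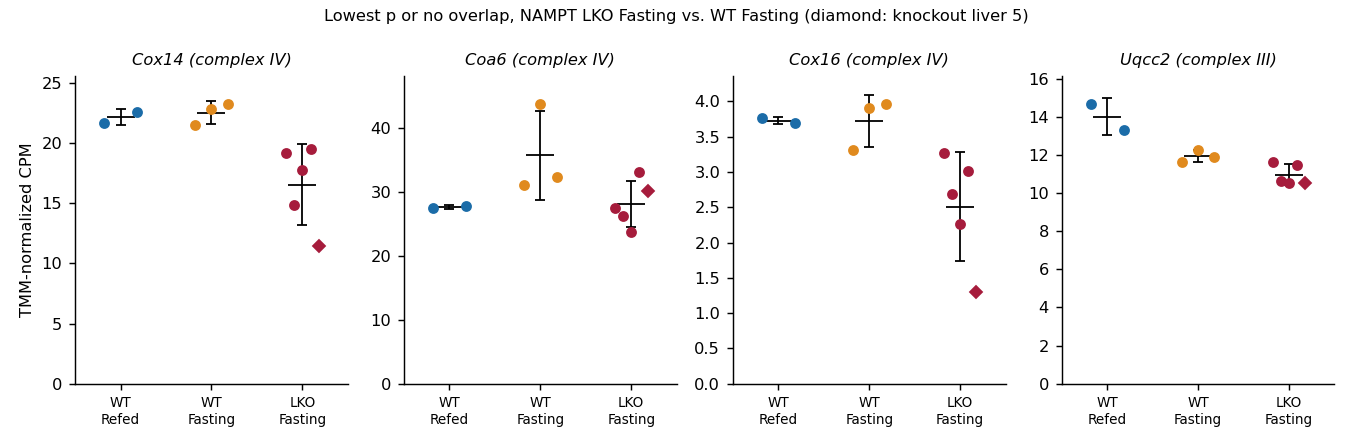
TMM-normalized CPM in each liver (points), with group means and SD (bars), of the 4 members with an unadjusted p under 0.05 or without overlap in NAMPT LKO vs. WT Fasting livers; the diamond is knockout liver 5. Cox14 and Cox16 are lowest in that liver, at 11.4 and 1.30, and Coa6 overlaps between the fasted groups.

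The lowest p of the other complexes in this comparison belonged to Foxred1 (-0.19, SE 0.11, adjusted p = 0.837), Sdhaf2 (0.09, SE 0.09, adjusted p = 0.874), Uqcc2 and Atpaf1 (0.24, SE 0.15, adjusted p = 0.839). Without knockout liver 5 Foxred1 was at -0.12, Sdhaf2 at 0.09, Uqcc2 at -0.11 and Atpaf1 at 0.18. The nuclear subunits leaned lower in the same comparison without a call, with 28 of 36 complex I subunits lower (median -0.078), and medians of -0.12, -0.19, -0.16 and -0.11 for complexes II to V. Without knockout liver 5 the medians were -0.13 for complex I (34 of 36 lower) and -0.095, -0.16, -0.20 and -0.11 for the others. The 13 mitochondrially encoded subunits were all higher with that liver (median 0.43), with 0 called. Without it the median was 0.053, 4 of the 13 were lower (mt-Nd3, mt-Co2, mt-Co3 and mt-Atp8) and 0 were called. Across the 44 members the fitted change correlated with GC content at a Spearman's rho of -0.344, close to the -0.360 over all genes, and without knockout liver 5 the values were -0.0953 and -0.104, a description across genes that share these libraries. Cholangiocyte markers (Krt19, Krt7, Epcam, Sox9 and Spp1) summed to 34.0 to 54.5 TMM-normalized CPM in NAMPT LKO Fasting livers against 15.2 to 22.3 in WT Fasting livers and 20.1 and 22.4 in WT Refed livers, with 5 of 5 higher and 0 called against WT Fasting livers, and each was detected in every liver. Against WT Fasting livers their median log2 fold change was 1.64. By edgeR's quasi-likelihood test 4 of 5 had an unadjusted p under 0.05, against 6.03% of all genes. In NAMPT LKO Fasting vs. WT Refed livers 2 were called higher, where 11.2% of all genes were called. Against WT Fasting livers, stellate cell markers were 5 of 5 higher, and hepatocyte and macrophage markers were each 5 of 6 lower, with 0 called. The part of these cell types in the result was not tested.

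Levels between genes were compared per length, as RPKM (the CPM per kilobase of exon). The 3 most abundant factors were Coa6, at a mean of 39.3 RPKM over the 10 livers, Coa3 at 32.7 and Uqcc3 at 31.0, an order that differed between groups. The group means of Coa6 were 37.4 ± 0.28 (SD, n = 2), 46.3 ± 7.34 (SD, n = 3) and 35.7 ± 4.43 (SD, n = 5) RPKM in WT Refed, WT Fasting and NAMPT LKO Fasting livers. Those of Coa3 were 47.0 ± 1.99, 28.3 ± 0.80 and 29.6 ± 5.37 RPKM, so that Coa3 held rank 1 in WT Refed livers, rank 4 in WT Fasting livers and rank 3 in NAMPT LKO Fasting livers. Uqcc3, at 29.4 ± 3.36, 32.4 ± 3.57 and 30.9 ± 3.76 RPKM, and Cox14, at 31.6 ± 0.82, 30.8 ± 1.61 and 22.4 ± 5.73, had mean levels that differed by no more than the SD of Uqcc3 in both WT groups. The 3 least abundant tested factors were Cox17 at 0.34 RPKM, Lyrm7 at 0.58 and Sdhaf1 at 0.67, on 35 to 165 counts per liver. The annotated exonic length of Cox17, by which RPKM divides, is 5773 bases, against a median of 2247.5 over the tested members. Of the Cox17 bases 4.45% are shared with Gm21987, and of the Sdhaf1 bases 69.6% are shared with E130208F15Rik. The low rank of Cox17 and Sdhaf1 may therefore not show how strongly the liver expresses them. The median coefficient of variation among livers of a group was 4.18% in WT Refed, 8.60% in WT Fasting and 13.2% in NAMPT LKO Fasting livers, against 6.07%, 10.9% and 17.1% for the 10098 genes in the same range of CPM. As the groups held 2, 3 and 5 livers, knockout liver 5 among them, these values are not compared between groups.

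Of the complex IV factors, 3 did not pass the filter. Sco2, a copper chaperone, and Pet117 had 0 counts in all 10 livers, and every exonic base of either is shared with another annotated gene (Ncaph2 or Tymp, and Kat14). Cox20, a chaperone of mt-Co2, had 2 to 14 counts, at most 0.332 CPM, with 91.1% of its exonic bases shared. Only unambiguous reads were counted and use of strand is not stated, so reads on shared bases may have been counted for neither gene, and these counts do not measure how strongly the liver expresses the 3 genes. Of the tested members, 32 share no exonic base with another gene, and their median log2 fold change in WT Fasting vs. WT Refed livers was -0.34 with 26 lower, against -0.18 with 9 lower for the 12 that share some. The largest shares were 72.4% in Pet100 (with Pcp2), 69.6% in Sdhaf1, 56.8% in Cox16 and 48.3% in Cox11 (with Tom1l1). These 4 had a median of -0.025, with 3 lower.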

How the data were processed

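Liver RNA from 10 mice was sequenced as single reads. The authors aligned the reads to GRCm38 with STAR (2.5.1a per the labels) and deposited counts of uniquely aligned reads per Ensembl gene from featureCounts (1.4.6-p5 per the labels; the study's methods give other versions). The deposited CPM are these counts scaled to a common library total, and the deposited RPKM divide them by exonic length, which was checked against the counts. The strand setting was not given in the sources used here.

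From the counts, rRNA genes and genes at or under 1 CPM in every library were dropped, which left 13444 genes. After TMM scaling, edgeR 4.0.16 (glmQLFit, legacy default, and glmQLFTest, in R 4.3.3) was fitted with 1 mean per group over all 10 libraries and Benjamini-Hochberg adjustment over all genes. Alternatives were edgeR's exact test, limma 3.58.1 (voomWithQualityWeights), DESeq2 1.42.0, other scalings and filters, removal of each library's GC trend (loess span 0.5), fits of 2 groups, a replicate block, each library left out and other thresholds. The tests were run on simulated data, with 100 genes changed by 0.5 and 100 by 1 (log2). For WT Fasting vs. WT Refed, the quasi-likelihood test recovered 0 and 8 (0 false calls) and voomWithQualityWeights 0 and 6 (0). DESeq2 recovered 8 and 52 (30) and the exact test 3 and 42 (22). For NAMPT LKO vs. WT Fasting, the quasi-likelihood test recovered 5 and 55 (3) and voomWithQualityWeights 5 and 50 (2). DESeq2 recovered 20 and 77 (24) and the exact test 15 and 72 (18). The members, lists and promoter cores were chosen with earlier results of these data known. Full values are given for each member called in any comparison, the member with the lowest p of each complex in NAMPT LKO vs. WT Fasting livers, and the 3 most and 3 least abundant. Replicates were separate mice, and no 2 libraries of a group agreed within sampling noise. No label pairs mice by replicate number. Protein sequences were not used here.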

Additional observations from a re-analysis of the deposited data

Results flagged for a closer look

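Among the 5 NAMPT LKO Fasting livers, 50 values were screened (44 members and 6 sums), and for 6 of them the highest or lowest liver lay far from the other 4, where chance gives about 2.5. The ratio of the gap to the whole range is given for each, with a limit of 0.71. Knockout liver 5 was high for Ndufaf2 (22.0 TMM-normalized CPM against 8.17 to 9.87, ratio 0.877). It was also high for Pet100 (32.5 against 16.8 to 19.4, ratio 0.833), of whose exonic bases 72.4% are shared with Pcp2. The same liver was low for Cox10 (9.19 against 13.2 to 14.6, ratio 0.731) and for Atpaf2 (14.1 against 16.9 to 17.8, ratio 0.761). It was also high for the summed complex III factors (110 against 93.6 to 95.0, ratio 0.919). Knockout liver 1 was low for Nubpl (3.57 against 5.05 to 5.56, ratio 0.745). Of the 6, 5 belong to knockout liver 5, the library with the strongest relation to GC content, where members with GC above the median deviated by a median of -0.17 on the log2 scale and those below it by 0.05; the part of GC content in the single values was not tested.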

How the results depend on the processing

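The median of the members stayed below 0 in all 3 comparisons under every alternative run. In WT Fasting vs. WT Refed livers it was -0.31, with -0.37 when library size was the only scaling and a range of -0.36 to -0.29 with 1 library left out. In NAMPT LKO Fasting vs. WT Refed livers it was -0.37, with -0.47 by library size alone. The number of members called was less stable, and so was that over all genes, whose share called follows each count in parentheses. From 2 (7.04%) in WT Fasting vs. WT Refed livers it went to 18 (24.8%) with voomWithQualityWeights, 8 (12.2%) with DESeq2, 5 (7.28%) with library size alone, 6 (10.6%) with the GC trend removed, 10 (12.6%) in a fit of only those groups, 14 (16.6%) with the GC trend removed and knockout liver 5 left out (chosen after seeing the data), 16 (22.3%) at an unadjusted p under 0.05, and 0 to 11 (0.798% to 16.7%) with 1 library left out. In NAMPT LKO Fasting vs. WT Refed livers the 10 (11.2%) became 26 (31.8%) with voomWithQualityWeights, 18 (16.7%) with DESeq2, 5 (5.18%) without a filter, 6 (8.60%) in the fit of only those groups, 21 (21.0%) with the GC trend removed and knockout liver 5 left out, 22 (26.1%) at the unadjusted p, 5 (9.90%) when changes under 0.5 (log2) were not called, and 0 to 20 (1.69% to 21.2%) with 1 library left out. In NAMPT LKO vs. WT Fasting livers it was 0 under each alternative, other than 3 at an unadjusted p under 0.05. The cause of these shifts was not tested.

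The replicate numbers of the WT Fasting and NAMPT LKO Fasting livers were treated as names, as no label ties them and same-numbered livers had correlated deviations of 0.104, 0.0782 and 0.0971, not all above 0.1. The 6 differently numbered pairs lay between -0.167 and 0.0316, so that each of these livers correlated best with its own number, a hint from the data and not from the design. A replicate block over the livers numbered 1 to 3 called 0 members and gave a median of -0.08, as did the same livers without the block.

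Signs turned for some values near 0. Cox14 in WT Fasting vs. WT Refed livers was -0.0401 by library size alone, -0.0368 with the GC trend removed and -0.0373 without knockout liver 5 as well, and ranged from -0.0177 to 0.0462 with 1 library left out. In NAMPT LKO vs. WT Fasting livers Ndufaf4 was -0.0201 with voomWithQualityWeights, -0.0158 with the replicate block and -0.0381 without it, and Sdhaf1 was -0.13, -0.28 and -0.25, and -0.0128 by library size alone. Taco1 was 0.0542 and Uqcc3 0.0317 with the GC trend removed. With 1 library left out, Uqcc3 ranged from -0.13 to 0.0581, Lyrm7 from -0.36 to 0.37, Sdhaf1 from -0.18 to 0.15, Cox15 from -0.17 to 0.0106, Cox17 from -0.20 to 0.0319, Ndufaf4 from -0.0390 to 0.29, Taco1 from -0.0592 to 0.0248 and Bcs1l from -0.0879 to 0.0066. Against WT Refed livers, Coa6 in NAMPT LKO Fasting livers was -0.0195 with voomWithQualityWeights, -0.0682 by library size alone, -0.0037 with the GC trend removed and -0.0048 without knockout liver 5 as well, and it varied from -0.0378 to 0.0748 with 1 library left out, as Atpaf1 did from -0.21 to 0.11. Depth limits Sdhaf1, Lyrm7, Ndufaf5, Cox16 and Cox17, the tested members that fell under 50 counts in at least 1 liver. With 1 library left out (added after seeing the data), the median of the mitochondrially encoded subunits ranged from -0.29 to -0.050 in WT Fasting vs. WT Refed and from 0.053 to 0.59 in NAMPT LKO vs. WT Fasting livers.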
